A study of Rattus norvegicus with 52 samples.

Results

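The response of the kidney to 24 hours of high dietary salt was measured in male rats of the congenic strain ET3x1 by setting 4 rats moved to a diet with 4% NaCl against 4 rats kept on 0.4% NaCl. Each rat gave RNA of its left kidney for 2 Affymetrix arrays, a RAE230A and a RAE230B chip, so that the comparison rests on 16 of the 52 arrays and on 8 of the 26 rats of the series. These arrays were chosen by the strain and diet in their labels and joined across chips by the animal number, and every probe set that is not a control entered. The parent strain S is the inbred Dahl SS/Jr rat, which becomes hypertensive when fed salt. ET3x1 is a congenic strain, in which a stretch of chromosome from the R rat, which resists salt, replaces that of S, so all 8 rats share nearly the whole S genome. Where the segment ends is not given in the sources used here. After weaning at day 30 every rat ate the 0.4% NaCl diet, the switch to 4% NaCl took place at 39 to 41 days, and the kidneys were taken a day later. The other groups were S rats, 5 on each diet, and ET3x2 rats, another congenic strain, 4 on each diet. Each rat counts as 1 replicate, and the labels name no litter or array batch.

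The kidney regulates body sodium by reabsorbing filtered salt along its tubules: transporters of the proximal tubule and the thick ascending limb recover most of it, and the distal convoluted tubule and collecting duct set the remainder under control of aldosterone, a hormone that salt loading lowers. Cells of the inner kidney live in a hypertonic surrounding and balance it with organic osmolytes such as inositol and taurine, whose uptake transporters are switched on by the transcription factor NFAT5. Dahl rats are known for poor excretion of a salt load and for kidney damage on longer salt feeding.

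The RNA control probe sets differed between the diets in ET3x1, and this stands beside every result below. Each chip measures Gapdh and beta-actin near the 3' and the 5' end of the transcript, and the log2 difference between both ends grows as RNA or cRNA becomes shorter. For Gapdh on RAE230A this difference was 0.77, 0.99, 0.93 and 0.82 in the low-salt rats and 0.60, 0.61, 0.56 and 0.61 in the high-salt rats. For beta-actin it was 0.88, 1.40, 1.41 and 1.20 against 0.73, 0.53, 0.52 and 0.66. Every low-salt rat thus lay above every high-salt rat, and low-salt rat 1 was the nearest to the high-salt group. On RAE230B the means were 0.78 ± 0.06 and 0.42 ± 0.08 for Gapdh and 0.92 ± 0.26 and 0.30 ± 0.04 for beta-actin (SD, n = 4 each). The signal of the bioD spike-in over that of bioC, RNAs added in fixed amounts, also differed, at 2.54 ± 0.24 on low and 3.08 ± 0.15 on high salt on RAE230A and 2.23 ± 0.17 and 3.03 ± 0.13 on RAE230B (SD, n = 4 each). All 6 differences had an exact permutation p of 0.0286, two-sided, the smallest that 4 against 4 rats can give, and 0.0476 after adjustment over 10 measures. The 3' to 5' difference of hexokinase (exact permutation p of 0.486 and 0.0571) and the array medians (0.8 and 0.114) did not reach the threshold.

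**Figure D1:**
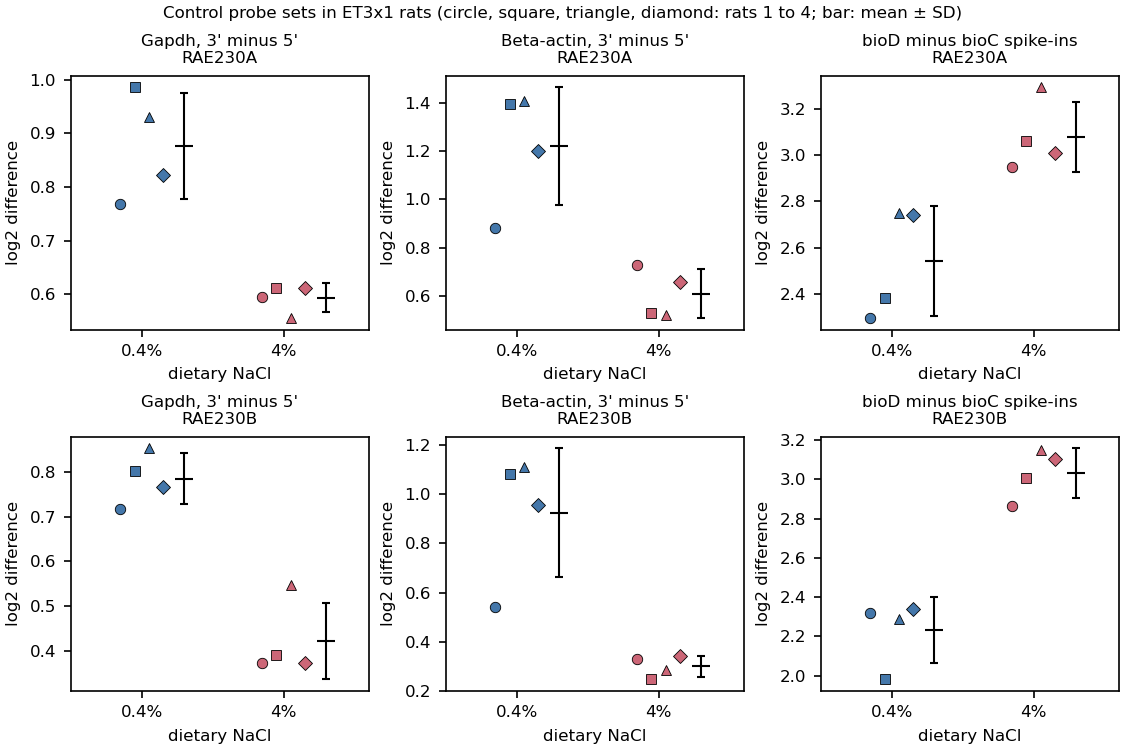
Control measures of the 8 ET3x1 rats by diet, as log2 differences between control probe sets, with a column for each measure and a row for each chip; bars are the mean ± SD of 4 rats. In all 6 panels the 4 low-salt rats and the 4 high-salt rats do not overlap, and for beta-actin on RAE230A low-salt rat 1 (0.88) lies nearest to the high-salt rats (0.52 to 0.73).

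At 24 hours of high salt, limma with Benjamini-Hochberg adjustment over both chips called 2457 of 15473 tested probe sets (15.9%), of which 1080 were higher (6.98%) and 1377 lower (8.90%) on high salt. The median size of a called change was 0.38 on the log2 scale, and 85 changes exceeded 2-fold, 65 of them rises and 20 falls. The values of both groups did not overlap in 1344 probe sets that were higher (8.69%) and 1744 that were lower (11.3%). With the brightest probe set standing for each gene, 436 of 8825 genes rose (4.94%) and 828 fell (9.38%), with a median change of -0.04 over all genes. When the 3' to 5' Gapdh difference of each array entered the fit as a covariate, 6 probe sets were called by limma and none of the 1080 rises was (1908 probe sets had an unadjusted p under 0.05), although 2439 of the 2457 changes kept their sign and their median size was 0.836 of that without it. Their median standard error in that fit was 0.16. Single genes departed widely from the median size. Gsr went from 0.48 to 0.05 and Hmox1 from -0.42 to -0.07, while Slc5a3 went from -1.33 to -1.83. The Gapdh measure separates the diets without overlap in these 8 rats, and so does the difference between the spike-ins, which are not rat RNA. The effects of diet, of RNA length and of array handling therefore cannot be told apart. The part of RNA quality and of array handling in each gene result was not tested. With the beta-actin covariate 820 probe sets were called (251 higher, 569 lower), and with the spike-in difference 958 (563 higher, 395 lower). Leaving out 1 rat at a time gave 1353 calls without low-salt rat 3, 1354 without low-salt rat 2, 1511 without high-salt rat 3 and 3328 without low-salt rat 1.

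The 12 largest rises among genes were Nedd4, a ubiquitin ligase, Mmut, the mitochondrial methylmalonyl-CoA mutase, Plekhb2, Actr3 and Actr2, both of the actin-branching Arp2/3 complex, St6gal1, a sialyltransferase, Mat2a, which makes S-adenosylmethionine, App, the amyloid precursor, the RNA helicase Ddx3x, the copper transporter Slc31a1, the translation factor Eif4g2 and Aldh6a1, an enzyme of valine breakdown. They ranged from 1.29 ± 0.16 (SE) for Actr2 to 1.75 ± 0.24 for Nedd4 (limma adjusted p = 3.5e-05), which is 3.36-fold. The leading Nedd4 probe set was at 8.08, 7.07, 6.998 and 7.46 on low salt and at 8.87, 9.11, 9.44 and 9.19 on high salt. Mmut (1.64 ± 0.19) was at 7.94, 7.001, 6.997 and 7.35 against 8.73, 9.19, 9.25 and 8.70. Actr3 (1.55 ± 0.17) was at 7.62, 7.22, 7.29 and 7.53 against 8.72, 9.04, 9.10 and 9.003. In all 12 the groups did not overlap, which the choice by size among calls favours. Over all tested probe sets 8.69% were higher without overlap. Low-salt rat 1 was the highest of the low-salt rats in all 12 rises. It also had the low-salt group's smallest 3' to 5' differences. In 11 of the rises high-salt rat 1 was the lowest of its group. With the Gapdh covariate none of the 12 was called. Their changes then ranged from 0.33 ± 0.28 for St6gal1 to 1.44 ± 0.31 for Mmut, with Slc31a1 at 0.43, Plekhb2 at 0.57 and Mat2a at 0.60.

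For 11 of these 12 genes the probe set that rose was not the gene's brightest. Brightness was ranked across both chips, although the median signal was lower on RAE230B (6.38, against 7.51 on RAE230A). Of the 12 leading probe sets 7 lay on RAE230B. The brightest rose as well for Mmut (0.53 ± 0.12) and Aldh6a1 (0.41 ± 0.12), fell for Nedd4 (-0.56 ± 0.19) and Actr2 (-0.68 ± 0.17), and was not called for the other 7, among them Mat2a (-0.03 ± 0.10) and Plekhb2 (-0.12 ± 0.09). The same pattern ran through the whole comparison. Among probe sets that were the dimmer of several for a gene, 458 of 2285 rose (20.0%) and 171 fell (7.48%). For the brightest the shares were 4.94% and 9.38%, with genes that had only 1 tested probe set included. Where such a dimmer probe set rose, by a median of 0.52, the brightest probe set of the gene had a median change of 0.03 and was called higher in 45 cases, lower in 25 and not at all in 388. More than 1 probe set was called for 134 genes, and for 34 of these the calls went both ways. What sets the probe sets of a gene apart was not tested, and the position of the probe sets within transcripts was not used here. The gene list results that follow take the brightest probe set of each gene, and in every list the shares to read a count against are the 4.94% of all genes that rose and the 9.38% that fell. The largest rises, falls and strain differences take the probe set of smallest p, which is often a dimmer one.

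The 12 largest falls were those of Evi5, a GTPase-activating protein, the splicing proteins Srrm2 and Sf3b1, Ccdc6, Slc5a3, which takes up inositol, Tns1, the focal adhesion protein tensin, Cpd, a carboxypeptidase, Ccnd1, cyclin D1, Pcmtd2, Espn, an actin bundler, Nfat5 and Cmip. Tns1 fell by 1.30 ± 0.15 (limma adjusted p = 9.3e-06), from 9.88, 10.01, 9.50 and 9.61 to 8.45, 8.45, 8.45 and 8.46, so that the high-salt rats lay close together, below every low-salt rat. Ccdc6 fell by 1.39 ± 0.20, from 10.73, 11.25, 11.54 and 11.25 to 9.76, 9.78, 9.78 and 9.88. Srrm2 (-1.67 ± 0.27) was spread more widely on high salt, at 8.74, 8.90, 8.11 and 7.22 against 9.68, 10.25, 9.99 and 9.75. The groups did not overlap in any of the 12, which the choice by size among calls favours. Over all tested probe sets 11.3% were lower without overlap. Low-salt rat 1 was the lowest of the low-salt rats in 5 of the 12 falls. High-salt rat 1 was the highest of its group in 2. The leading probe set was the brightest, or the only one tested, for 6 of them, Srrm2, Ccdc6, Slc5a3, Cpd, Pcmtd2 and Espn. For Tns1 (-0.33 ± 0.08) and Cmip (-0.48 ± 0.12) the brightest probe set fell too, while it was not called for Evi5 (0.08 ± 0.09), Sf3b1 (0.10 ± 0.10), Ccnd1 (-0.35 ± 0.14) and Nfat5 (0.09 ± 0.10). A further Tns1 probe set was called higher (0.31 ± 0.08). All 6 calls left with the Gapdh covariate were falls, named here after their values were seen: Slc5a3 (-1.83 ± 0.32), Tns1 (-1.56 ± 0.23), the transcription factor gene Etv1 (-1.19 ± 0.21), the stress-induced sestrin gene Sesn2 (-1.17 ± 0.19) and 2 probe sets without a gene symbol.

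**Figure D2:**
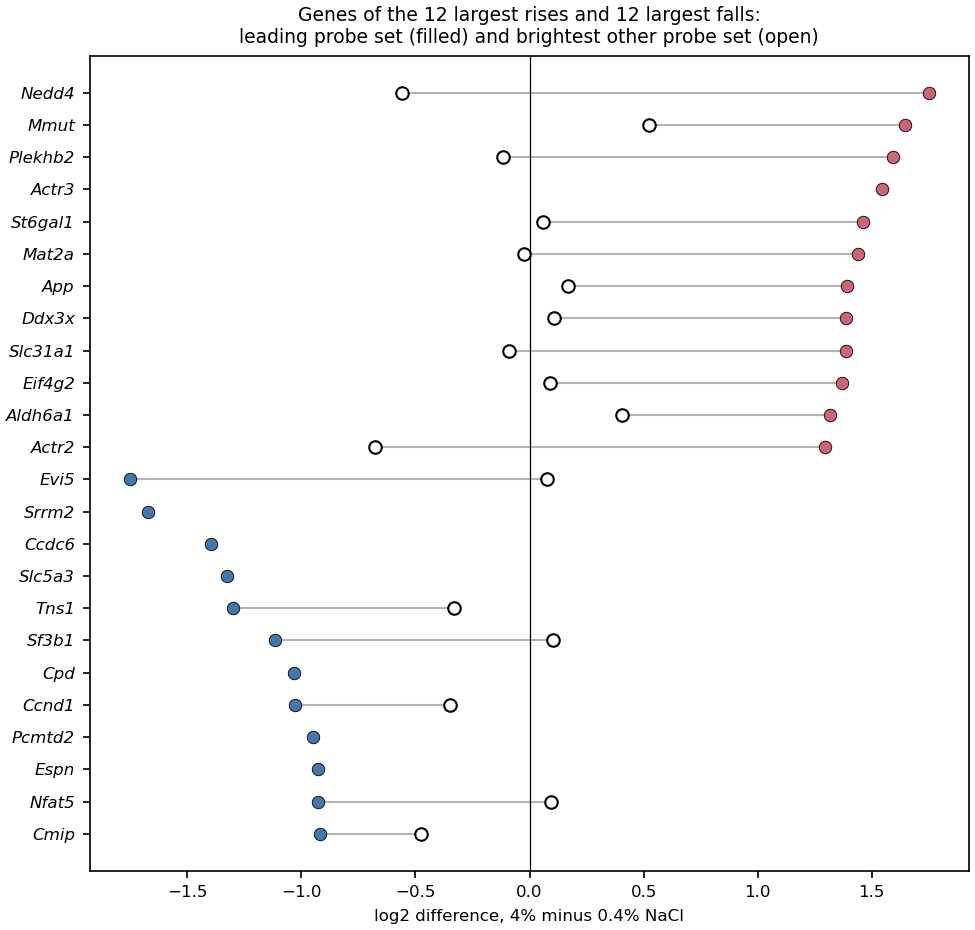
Log2 difference between 4% and 0.4% NaCl for the genes of the 12 largest rises and 12 largest falls, with the probe set that led to the choice as a filled point and the gene's brightest probe set, where that is another, as an open point. For 7 of the rises the open point is a probe set that was not called, as for Mat2a (-0.03), and for Nedd4 (-0.56) and Actr2 (-0.68) it lies on the other side of 0.

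Of 13 osmolyte and tonicity genes tested, 4 fell and 0 rose, beside 9.38% and 4.94% of all genes (median -0.10, against -0.04 over all genes). Slc5a3, the sodium and inositol cotransporter, was at 8.73, 8.64, 8.88 and 8.60 on low salt and at 7.70, 7.78, 7.16 and 6.90 on high salt, a fall of 1.33 ± 0.21 or 2.51-fold (limma adjusted p = 1.3e-04). Its second probe set lay below the brightness floor. Slc6a6, the taurine transporter, was at 9.37, 9.23, 9.26 and 9.36 against 8.86, 8.85, 8.88 and 8.73 (-0.47 ± 0.10), and its dimmer probe set fell further (-0.88 ± 0.12). Neither gene's groups overlapped. The other falls were S100a4, a calcium-binding protein gene (-0.30 ± 0.09), and Avpr2, the vasopressin receptor that drives water retention in the collecting duct (-0.27 ± 0.08). S100a4 and Avpr2 lost their call in 2 and 6 of the 26 fits that each left out 1 rat, Slc5a3 and Slc6a6 in none. For Nfat5, the activator of this set, the probe set that fell (-0.93 ± 0.26, lost in 2 fits) and the brighter one (0.09 ± 0.10) disagreed. Slc5a3 changed by -0.16 ± 0.19 in S and by -0.20 ± 0.21 in ET3x2. Its difference from S was called (-1.17 ± 0.28, limma adjusted p = 0.018), and that from ET3x2 was not (-1.13 ± 0.30, limma adjusted p = 0.085).

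Of 19 cholesterol synthesis genes tested, 7 rose, 1 fell and 11 were not called (median 0.13), beside 4.94% and 9.38% of all genes. Sqle, Idi1, Msmo1, Fdps, Nsdhl, Lss and Dhcr7, all enzymes of the pathway after the decarboxylation of mevalonate, rose, and Mvd, the decarboxylase that makes isopentenyl diphosphate, fell (-0.33 ± 0.11). Idi1, the isomerase that follows Mvd, and Fdps, which joins the isoprene units, are shown here with their promoters because both rose together and hold the same short motif. The sequences are from RefSeq (GRCr8), spanning the transcription start, at chr17:66547475-66547774 on the minus strand for Idi1 and chr2:176804767-176805066 on the minus strand for Fdps. Capitals mark the CCAAT box, searched as CCAAT on both strands.
Idi1: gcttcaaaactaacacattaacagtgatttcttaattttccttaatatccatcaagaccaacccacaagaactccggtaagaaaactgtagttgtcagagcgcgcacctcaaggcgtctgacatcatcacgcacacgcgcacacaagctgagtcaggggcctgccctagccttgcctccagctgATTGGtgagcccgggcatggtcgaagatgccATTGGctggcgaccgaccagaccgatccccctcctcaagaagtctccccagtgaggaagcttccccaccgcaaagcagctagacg
Fdps: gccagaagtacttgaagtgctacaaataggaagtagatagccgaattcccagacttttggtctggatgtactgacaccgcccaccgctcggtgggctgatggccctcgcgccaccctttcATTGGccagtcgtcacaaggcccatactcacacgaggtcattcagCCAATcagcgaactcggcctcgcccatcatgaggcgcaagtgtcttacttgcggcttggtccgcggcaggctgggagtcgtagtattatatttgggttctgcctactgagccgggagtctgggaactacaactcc
Among 16 list genes with a promoter there, 13 held a CCAAT box, 5 of the 6 matched genes that rose among them and also Mvd, against 37.5% of all 33469 promoters of that length. A match describes the letters only. These promoters were chosen after the values were seen.

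Squalene epoxidase, Sqle, was at 8.07, 7.72, 7.95 and 7.96 on low salt and at 8.91, 8.68, 8.73 and 8.67 on high salt (0.83 ± 0.11, 1.77-fold, limma adjusted p = 2.1e-05). Idi1 was at 8.27, 7.90, 8.48 and 8.32 against 9.13, 8.68, 9.33 and 9.03 (0.80 ± 0.16), and its dimmer probe set rose by 0.65 ± 0.11. For both genes every high-salt rat was above every low-salt rat. Msmo1, a sterol demethylase component (0.46 ± 0.12), and Fdps (0.46 ± 0.13, call lost in 2 of 26 fits) followed, with Fdps at 9.55, 9.52, 9.61 and 9.73 against 10.28, 9.96, 10.02 and 9.99. In S, whose rats are other animals, the salt changes of Sqle, Idi1, Msmo1 and Fdps were 0.64 ± 0.10, 0.87 ± 0.15, 0.60 ± 0.11 and 0.56 ± 0.12, and in ET3x2 0.54 ± 0.11, 0.77 ± 0.16, 0.35 ± 0.12 and 0.33 ± 0.13. None of the 4 differed between ET3x1 and either strain at the threshold (smallest limma adjusted p = 0.375). With the Gapdh covariate Sqle was at 0.76 and Idi1 at 0.57, neither called. Among fatty acid genes the stearoyl-CoA desaturase Scd2 rose (1.09 ± 0.28) with overlapping groups, at 7.98, 7.09, 7.95 and 8.51 against 9.53, 8.85, 8.98 and 8.49, and the elongase Elovl1 fell (-0.35 ± 0.11), and 10 of 12 were not called. Leaving out rats ended the call of Scd2 in 1 fit and of Elovl1 in 6. Ppargc1a, a coactivator of mitochondrial and fasting genes, was the only 1 of 22 genes of fatty acid oxidation to be called (0.50 ± 0.12).

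The chaperone genes that were called moved in both directions. Of 21 tested, 5 fell, 2 rose and 14 were not called, beside 9.38% of all genes that fell and 4.94% that rose (median -0.08). The falls were Hspa5, the chaperone of the endoplasmic reticulum, Hspb1, Hsph1, Dnajb1 and Hspa1a, which are induced by heat or misfolded protein in the cytosol, and the rises were the mitochondrial Hspa9 and Hspe1. The promoters of 2 of the genes that fell are shown since they carry the letters that heat shock factor reads, GAANNTTC or TTCNNGAA, searched on both strands and marked in capitals, Hsph1 at chr12:10427118-10427417 on the plus strand and Hspb1 at chr12:26432252-26432551 on the minus strand (RefSeq, GRCr8).
Hsph1: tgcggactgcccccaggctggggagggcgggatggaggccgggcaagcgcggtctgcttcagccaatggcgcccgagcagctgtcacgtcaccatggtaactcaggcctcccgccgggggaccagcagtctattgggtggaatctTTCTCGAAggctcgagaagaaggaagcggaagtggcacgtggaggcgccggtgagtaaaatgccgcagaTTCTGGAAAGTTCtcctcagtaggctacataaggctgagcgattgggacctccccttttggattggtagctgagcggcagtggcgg
Hspb1: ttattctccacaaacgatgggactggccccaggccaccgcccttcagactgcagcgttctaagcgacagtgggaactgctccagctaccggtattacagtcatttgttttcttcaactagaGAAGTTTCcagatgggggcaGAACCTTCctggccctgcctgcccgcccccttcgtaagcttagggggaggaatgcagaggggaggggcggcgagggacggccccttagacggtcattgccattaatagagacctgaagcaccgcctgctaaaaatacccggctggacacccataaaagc
In Hsph1 there are 3 matches, of which 2 overlap. Of the 18 list genes with a promoter, 11 held a match, 3 of the 5 that fell and both that rose, against 15.85% of all promoters, and Hspa5 held none.

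Hspa5 was at 10.98, 11.18, 11.73 and 11.71 on low salt and at 10.62, 10.66, 10.52 and 10.76 on high salt (-0.76 ± 0.14, limma adjusted p = 6.4e-04). Hspb1 was at 7.71, 7.88, 8.30 and 7.95 against 7.48, 7.34, 7.34 and 7.48 (-0.55 ± 0.16), and Hsph1 at 9.77, 9.72, 10.33 and 10.17 against 9.59, 9.61, 9.52 and 9.72 (-0.39 ± 0.12). In each of them low-salt rats 3 and 4 were the highest of the 8, and the high-salt rats lay close together. Hsph1 lost its call in 5 of 26 fits and Hspb1 in 1. Hspa9 rose from 10.95, 10.45, 11.001 and 11.02 to 11.20, 11.30, 11.31 and 11.37 (0.44 ± 0.09), its groups did not overlap, and a dimmer Hspa9 probe set rose by 1.19 ± 0.15. The difference from S was called for Hspb1 (-0.83 ± 0.21) and for no other member.

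Of 15 genes of DNA replication and cell division tested, 5 rose, 0 fell and 10 were not called, beside 4.94% of all genes that rose. Of the 15 changes 14 were positive (median 0.19), beside 3506 of 8825 over all genes. Pcna, the sliding clamp of DNA polymerase, was at 9.69, 9.63, 9.66 and 9.93 against 10.48, 10.27, 10.48 and 10.27 (0.64 ± 0.10, limma adjusted p = 1.1e-04). The replication helicase subunit Mcm3 was at 7.27, 7.51, 7.49 and 7.60 against 8.15, 7.75, 7.93 and 7.84 (0.45 ± 0.09). In both the groups did not overlap. Ube2c, which drives exit from mitosis (0.40 ± 0.11), Cdkn2c, an inhibitor of cyclin-dependent kinases (0.29 ± 0.09, lost in 3 fits), and Mcm5 (0.22 ± 0.07) rose as well. With the Gapdh covariate the list's median was 0.28 and none was called. Pcna rose in ET3x2 too (0.55 ± 0.10), and in S its change was 0.29 ± 0.09 (limma adjusted p = 0.070).

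Among metabolic genes, 3 of 9 of gluconeogenesis and ammonia production rose and 0 fell, beside 4.94% and 9.38% of all genes (median 0.10). Glud1, glutamate dehydrogenase, was at 11.60, 11.34, 11.41 and 11.56 on low salt and at 12.16, 12.08, 12.19 and 12.16 on high salt (0.67 ± 0.08, 1.59-fold, limma adjusted p = 2.0e-05). Pck1, the rate-limiting enzyme of gluconeogenesis, was at 12.55, 12.38, 12.38 and 12.05 against 13.01, 12.83, 12.89 and 12.75 (0.53 ± 0.13), and the transaminase Got1 rose by 0.51 ± 0.11. All 3 genes had groups that did not overlap. A dimmer probe set of Glud1 was not called (0.17 ± 0.11). Of 21 genes of creatine and amino acid breakdown 4 rose and 1 fell (median -0.0048): Gldc, of the glycine cleavage system (0.78 ± 0.13), Cth, which makes cysteine (0.44 ± 0.12), Gatm, which makes the creatine precursor (0.41 ± 0.13), and Agxt2 (0.28 ± 0.07) rose, and the 5-oxoprolinase gene Oplah fell (-0.58 ± 0.20, lost in 10 fits). Gldc stood at 9.04, 9.03, 9.13 and 9.03 against 9.80, 9.93, 9.92 and 9.70, and its change in S was 0.78 ± 0.11. Cth and Gatm lost their calls in 2 fits each.

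**Figure D3:**
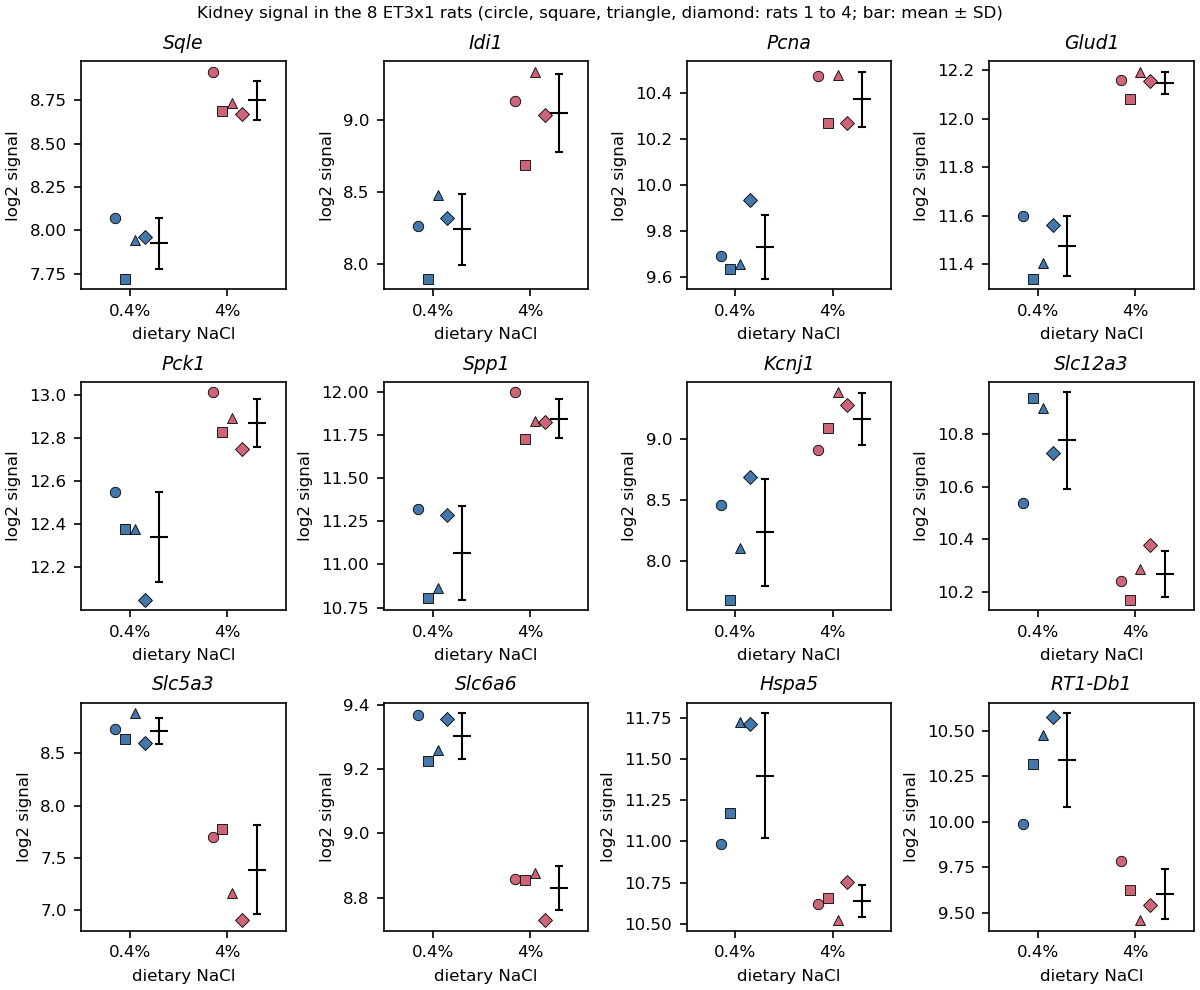
Log2 signal of 12 genes in the 8 ET3x1 rats, with 0.4% NaCl in blue and 4% NaCl in red; symbols mark rats 1 to 4 of each group and bars the mean ± SD. In every panel the high-salt and low-salt rats do not overlap, from Sqle (7.72 to 8.07 against 8.67 to 8.91) to Hspa5 (10.98 to 11.73 against 10.52 to 10.76). The genes were picked from called list members, which favours this, and called genes with overlapping groups, such as Scd2, are not drawn. Over all tested probe sets 8.69% were higher and 11.3% lower without overlap.

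Most salt transporter genes were not called. Of 16 genes of the loop of Henle and distal tubule, 2 rose, 2 fell and 12 were not called, beside 4.94% and 9.38% of all genes that rose and fell (median -0.04). Slc12a3, the thiazide-sensitive sodium and chloride cotransporter of the distal convoluted tubule, was at 10.54, 10.94, 10.90 and 10.73 on low salt and at 10.24, 10.17, 10.29 and 10.38 on high salt (-0.50 ± 0.11, limma adjusted p = 0.0021). Kcnj1, the potassium channel ROMK of the thick limb and collecting duct, was at 8.46, 7.68, 8.11 and 8.69 against 8.91, 9.09, 9.38 and 9.28 (0.93 ± 0.24), and was at 0.02 with the Gapdh covariate. Both genes had groups apart, with Kcnj1 the wider spread on low salt. With the Gapdh covariate Slc12a3 was at -0.26 ± 0.16 and was not called. Kcnj16, a potassium channel of the distal basolateral membrane, fell (-0.33 ± 0.10), and Cldn16, the magnesium pore of the thick limb, rose (0.26 ± 0.09). Leaving out rats ended the call of Kcnj1 in 1 fit, of Kcnj16 in 5 and of Cldn16 in 18. The salt response of Slc12a3 differed from that in S, where it was 0.16 ± 0.10 (difference -0.66 ± 0.14, limma adjusted p = 0.0099).

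Of 15 genes of the aldosterone pathway and the epithelial sodium channel, 2 rose and 1 fell (median -0.03). Scnn1g, the gamma subunit of that channel, was at 8.37, 8.28, 8.33 and 8.24 against 8.65, 8.66, 8.81 and 8.43 (0.33 ± 0.07, limma adjusted p = 0.0029), with groups apart. The brightest probe set of Nedd4 fell (-0.56 ± 0.19, lost in 7 fits) while 3 dimmer ones rose, by 0.75 to 1.75. Sgk1, the kinase that aldosterone induces, was at 9.82, 9.73, 10.59 and 10.64 on low salt and at 9.90, 9.73, 9.92 and 10.00 on high salt, with overlapping groups (-0.31 ± 0.19, limma adjusted p = 0.29). Nr3c2, the mineralocorticoid receptor, and Agt, angiotensinogen, lay below the brightness floor, and without the filter they changed by -0.04 ± 0.10 and -0.33 ± 0.13 (limma adjusted p = 0.86 and 0.10). Of 6 genes of the renin and angiotensin system 1 was called, Ctsb, the protease cathepsin B (-0.33 ± 0.08), which is also a lysosomal gene. The sodium pump subunit gene Atp1b3 rose (0.35 ± 0.10), 1 of 7 pump genes. In the proximal tubule 3 of 21 genes rose and 1 fell (median -0.07): the sulfate transporter Slc13a1 (0.51 ± 0.15), the sodium bicarbonate cotransporter Slc4a4 (0.41 ± 0.10) and the glucose transporter Slc2a2 (0.40 ± 0.13) rose, and Amn, partner of the protein uptake receptor cubilin, fell from 11.24, 11.57, 11.61 and 11.63 to 10.85, 10.82, 10.87 and 10.88 (-0.66 ± 0.13). Atp1b3, Slc13a1, Slc4a4 and Slc2a2 lost their calls in 2, 4, 1 and 6 fits.

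Of 14 injury markers tested, 4 rose and 0 fell, beside 4.94% and 9.38% of all genes (median 0.15). Spp1, osteopontin, was at 11.32, 10.81, 10.86 and 11.29 on low salt and at 11.998, 11.73, 11.84 and 11.83 on high salt (0.78 ± 0.13, 1.72-fold, limma adjusted p = 2.8e-04), and rose in S by 0.73 ± 0.12. Icam1, a leukocyte adhesion molecule (0.33 ± 0.08), Vim, vimentin (0.35 ± 0.12, lost in 9 fits), and Lcn2, the injury marker lipocalin-2 (0.23 ± 0.07, lost in 5 fits), were the others. Spp1 and Icam1 had groups apart and kept their call in every fit that left out a rat. Of 24 matrix genes 2 were higher, 4 lower and 18 not called (median 0.02). The membrane-bound protease Mmp14 (-0.79 ± 0.17), the laminin chain Lama5 (-0.34 ± 0.09), the protease inhibitor Timp3 (-0.34 ± 0.10) and Mmp2 (-0.29 ± 0.10) fell. The proteoglycan decorin, Dcn (0.51 ± 0.13), and Col18a1 (0.31 ± 0.10) rose. Timp3 had 3 called probe sets, a second one lower (-0.39 ± 0.11) and the dimmest higher (1.18 ± 0.16, limma adjusted p = 3.1e-05). Timp3 lost its call in 4 fits and Dcn in 1. Mmp14 went from 9.79, 9.70, 9.72 and 9.68 to 9.26, 8.98, 8.81 and 8.69, whereas in S it rose by 0.92 ± 0.16.

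Levels in whole kidney cannot tell fewer cells of a type from less RNA per cell. Of the smooth muscle genes 2 of 12 rose and 1 fell (median 0.02): Tagln was at 9.14, 9.15, 9.14 and 9.29 against 10.04, 9.66, 9.61 and 9.71 (0.57 ± 0.17, lost in 3 fits), Acta2, smooth muscle actin, rose by 0.47 ± 0.11, and the receptor gene Pdgfrb fell by 0.21 ± 0.07 (lost in 10 fits). The mean log2 level of the markers Acta2, Myh11 and Tagln lay between 8.48 and 8.55 on low salt and between 8.79 and 8.92 on high salt. Myh11 itself was not called, with a mean of 7.69 on low and 7.72 on high salt. Endothelial genes were 0 higher and 2 lower of 11 (median -0.16), Nrp1, a coreceptor of vascular growth factor (-0.83 ± 0.15), and Plvap, of the fenestral diaphragm (-0.37 ± 0.10, lost in 1 fit). Nrp1 was at 9.91, 10.22, 9.96 and 9.88 against 9.17, 9.21, 9.19 and 9.10, and its dimmer probe set was not called (0.15 ± 0.13). Of 8 podocyte genes only the actin crosslinker Actn4, which many cells share, was called (0.63 ± 0.11). Leukocyte genes were 1 higher and 1 lower of 20 (median -0.03): the class II chain gene RT1-Db1 fell from 9.99, 10.32, 10.47 and 10.58 to 9.78, 9.62, 9.46 and 9.54 (-0.74 ± 0.18), and Cd53 rose (0.30 ± 0.10, lost in 20 fits).

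Defining markers of other cell types gave the following mean log2 levels over all markers on the chips. The 5 proximal tubule markers (Slc34a1, Slc5a2, Lrp2, Cubn and Slc22a6) were among the brightest probe sets, as kidney tissue has them. Their mean was 11.9 to 12.01 on low salt and 11.77 to 11.83 on high salt, lower in every high-salt rat than in every low-salt rat. Limma called none of them, and they did not change alike. Slc5a2 changed by -0.26, Slc34a1 by -0.15 and Slc22a6 by -0.15, against -0.04 for Lrp2 and 0.02 for Cubn. Of all tested probe sets 11.3% were lower without overlap. The 2 thick ascending limb markers lay at 11.2 to 11.5 and 11.4 to 11.6, and the 4 collecting duct markers at 9.63 to 9.75 and 9.63 to 9.76, with Scnn1g called higher and Avpr2 lower. Distal convoluted tubule markers lay at 8.07 to 8.31 and 7.92 to 8.03, with Slc12a3 called lower and the other, Pvalb, below the floor. The 3 podocyte markers lay at 7.497 to 7.81 and 7.39 to 7.57 and the 3 endothelial ones at 7.72 to 7.99 and 7.66 to 7.86, with Nphs1 and Flt1 below the floor. The 4 leukocyte markers were at 8.39 to 8.59 and 8.50 to 8.54, with Ptprc below the floor and Cd53 called higher, and the 3 red cell markers at 10.6 to 11.4 and 10.4 to 11.6. All 3 adrenal cortex markers on the chips lay below the floor (5.68 to 5.78 and 5.67 to 5.82), as did 3 of 4 fat markers (6.54 to 6.87 and 6.73 to 6.92). The part of these cells in the gene results was not tested.

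The counts of the further gene groups below are to be read against 4.94% of all genes that rose and 9.38% that fell. Of 35 splicing factor genes 5 rose and 0 fell (median 0.09), the RNA helicase Ddx17 (0.75 ± 0.16), Hnrnpd (0.60 ± 0.11), Hnrnpf (0.59 ± 0.11), Hnrnpa2b1 (0.50 ± 0.13, lost in 1 fit) and Rbm39 (0.46 ± 0.10). Hnrnpf was at 8.95, 8.65, 8.84 and 9.10 against 9.51, 9.42, 9.48 and 9.49, so its groups did not overlap. With the Gapdh covariate the median of this list was -0.01. Of 67 genes of oxidative phosphorylation 5 rose and 3 fell (median -0.01), led by Ndufs1, of complex I (0.44 ± 0.10), and Cox7b, of complex IV (0.40 ± 0.08), against Uqcr11, of complex III (-0.33 ± 0.10, lost in 6 fits). Ribosomal protein genes were 1 higher and 1 lower of 39 (median -0.06), Rpl24 (0.26 ± 0.09, lost in 13 fits) and Rpl13a (-0.27 ± 0.09, lost in 5), and proteasome genes 1 higher and 2 lower of 39 (median -0.06), Psmd14 (0.59 ± 0.12), Psmd11 (-0.40 ± 0.11, lost in 3 fits) and Psmd4 (-0.39 ± 0.11). Lysosomal genes were 1 higher and 2 lower of 13 (median -0.08): the protease Ctsc rose from 9.87, 9.40, 9.52 and 9.87 to 10.22, 10.30, 10.26 and 10.21 (0.58 ± 0.10), and the hexosaminidase Hexa fell (-0.57 ± 0.14), as did Ctsb. Antioxidant genes were 3 higher and 4 lower of 28 (median -0.03), among them the mitochondrial superoxide dismutase Sod2 (0.48 ± 0.09), glutathione reductase, Gsr (0.48 ± 0.13, lost in 2 fits), heme oxygenase, Hmox1 (-0.42 ± 0.13, groups overlapping, lost in 4), and the glutathione transferase Gsta4 (-0.35 ± 0.10, lost in 1). Among genes of the response to low oxygen, lactate dehydrogenase A, Ldha, rose (0.33 ± 0.10, lost in 6 fits) and Ankrd37 fell (-0.28 ± 0.09, lost in 7), with 13 of 15 not called. Of 11 genes of arachidonate metabolism only the epoxygenase Cyp2j3 was called (-0.42 ± 0.11, lost in 1 fit), and of 6 erythroid genes Bpgm, which sets red cell oxygen release, rose (0.58 ± 0.13) and Slc25a37, a mitochondrial iron importer, fell (-0.30 ± 0.10, lost in 6 fits).

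Some lists held no call by limma. None of 14 circadian clock genes was called by limma (4 had an unadjusted p under 0.05). Their median was -0.12, and 11 of 14 changes were negative, beside 5319 of 8825 over all genes. Nearest to the threshold were Per3, a clock repressor (-0.30 ± 0.11, limma adjusted p = 0.052), and Tef, an output factor of the clock (-0.38 ± 0.14, limma adjusted p = 0.058), whose groups overlapped for both. None of 13 immediate early genes was called (3 had an unadjusted p under 0.05). Junb (-0.29 ± 0.11) and Klf4 (0.26 ± 0.11) came nearest, and Egr1 was at 7.83, 8.15, 8.56 and 8.04 against 8.08, 7.89, 7.47 and 7.60 (-0.38 ± 0.28, limma adjusted p = 0.37). Of 15 genes of insulin, IGF and interleukin-6 signalling none was called either (1 unadjusted), with Socs3 at 0.14 ± 0.06 and Il6st at 0.17 ± 0.09, although a dimmer Il6st probe set rose (0.62 ± 0.13). The 1 endothelin pathway gene tested, the converting enzyme Ece1, changed by 0.05 ± 0.07. No call was made among 2 adrenal cortex and 2 fat tissue genes above the floor, with no unadjusted p under 0.05. Rtel1, a DNA helicase gene of chromosome 3, changed by -0.08 ± 0.09 (limma adjusted p = 0.59), and its other tested probe set was called lower (-0.24 ± 0.08, limma adjusted p = 0.034). Of probe sets with 1 symbol, 79 of 856 on chromosome 3 rose (9.23%) and 98 fell (11.4%), against 813 (7.96%) and 900 (8.81%) of 10216 on other chromosomes.

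**Figure D4:**
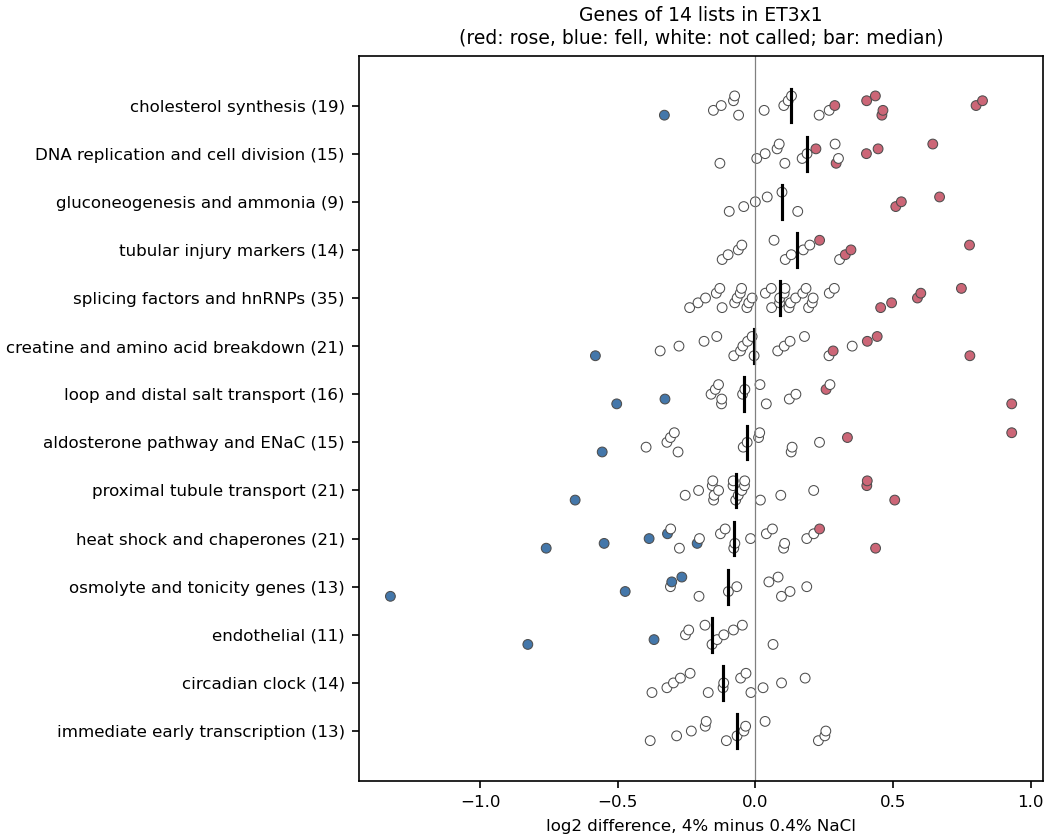
Log2 difference between 4% and 0.4% NaCl in ET3x1 for each tested gene of 14 lists (number of genes in brackets), by its brightest probe set; filled points were called by limma, open points were not, and the bar is the median. The list medians lie between -0.16 (endothelial) and 0.19 (DNA replication and cell division), and the osmolyte list ends with Slc5a3 at -1.33.

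The salt response was next compared with that of S rats, which tests whether the congenic strain responds differently from its parent. limma called 850 probe sets (5.49%), of which 219 were higher (1.42%) and 631 lower (4.08%) in ET3x1 than in S. The salt response on its own gave 430 calls in S, 327 higher (2.11%) and 103 lower (0.666%), together 2.78%. Evi5 fell by 1.75 ± 0.23 in ET3x1 and rose by 1.30 ± 0.20 in S, a difference of -3.05 ± 0.30 (limma adjusted p = 7.3e-07). Tns1, which fell in ET3x1, rose in S by 0.92 ± 0.13 (difference -2.21 ± 0.20, limma adjusted p = 2.8e-07), and Cpd (-1.82 ± 0.27), Cmip (-1.74 ± 0.20) and Mmp14 (-1.70 ± 0.23) had the same pattern. Ccdc6 differed by -1.91 ± 0.27, with a change of 0.51 ± 0.18 in S that was not called. On the other side, Vcl, the focal adhesion protein vinculin, rose in ET3x1 by 1.02 ± 0.25 and fell in S by 0.81 ± 0.22 (difference 1.83 ± 0.34, limma adjusted p = 0.0025). Sppl2a, an intramembrane protease (difference 1.47 ± 0.22), and Wtap, of the RNA methylation complex (1.42 ± 0.29), rose in ET3x1 and fell in S. Peli2 (1.58 ± 0.27), a ubiquitin ligase of innate signalling, rose in ET3x1 with no call in S, while Kpna1, a nuclear import receptor (1.596 ± 0.37), and Paip1, of translation (1.34 ± 0.30), fell in S with no call in ET3x1. Vcl was at 8.58, 7.38, 7.91 and 8.25 against 9.27, 8.92, 9.06 and 8.95 in ET3x1, with groups apart. The values of Evi5, Tns1, Cmip, Vcl, Peli2 and Paip1 are those of dimmer probe sets. The brightest ones of Vcl (0.15 ± 0.09), Peli2 (-0.04 ± 0.06) and Paip1 (0.18 ± 0.11) were not called in ET3x1, and those of Evi5, Tns1 and Cmip are given above.

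The 3' to 5' Gapdh difference on RAE230A went from 0.83 ± 0.07 on low to 0.81 ± 0.05 on high salt in S (SD, n = 5 each), a smaller step than in ET3x1. The beta-actin difference there went from 1.14 ± 0.26 to 0.92 ± 0.17. The bioD minus bioC difference was lower on high salt in S but higher in ET3x1. In S it went from 2.83 ± 0.11 to 2.37 ± 0.70 on RAE230A and from 2.54 ± 0.37 to 2.30 ± 0.34 on RAE230B. The part of these measures in the strain differences was not tested. With the Gapdh difference as a covariate 27 differences from S were called (4 higher, 23 lower), with the spike-in difference 58, and with the beta-actin covariate 932. Quantile normalization moved the split from 219 higher and 631 lower to 392 and 504. Among the list genes named so far, the difference from S was also called for RT1-Db1 (-1.17 ± 0.24), Oplah (-1.12 ± 0.27), Nrp1 (-0.91 ± 0.21), Actn4 (0.72 ± 0.15), Hexa (-0.70 ± 0.19), S100a4 (-0.57 ± 0.12), Ctsc (0.56 ± 0.13), Psmd11 (-0.52 ± 0.15), Psmd4 (-0.50 ± 0.14), Gsta4 (-0.50 ± 0.13), Junb (-0.48 ± 0.14), Plvap (-0.47 ± 0.14), Cox7b (0.43 ± 0.11) and Lama5 (-0.42 ± 0.12). In each of these except Junb, which was called in neither strain, the ET3x1 response was called and the S response was not.

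Against ET3x2, the other congenic strain, limma called 47 differences (0.304%), 28 higher (0.181%) and 19 lower (0.123%) in ET3x1. The salt response of ET3x2 itself gave 47 calls, 40 higher (0.259%) and 7 lower (0.0452%). Srrm2 (-1.77 ± 0.38), Evi5 (-1.47 ± 0.32), Erbin, a scaffold of epithelial cell borders (-1.30 ± 0.23), Pgpep1, a peptidase (-1.24 ± 0.23), Tns1 (-1.07 ± 0.21) and Sv2b (-0.97 ± 0.22) were lower in ET3x1. Mmut (1.36 ± 0.27), Actr3 (1.26 ± 0.24), Actr2 (1.00 ± 0.23), Osbpl1a, a lipid-binding protein (1.00 ± 0.22), Krcc1 (0.99 ± 0.19) and Papss2, which makes the sulfate donor (0.98 ± 0.19), were higher. All 12 were called in ET3x1 and none in ET3x2, where Krcc1 and Papss2 were at 0.00 ± 0.14. The leading Papss2 probe set was at 6.53, 6.55, 6.56 and 6.43 on low and at 7.34, 7.83, 7.49 and 7.34 on high salt, with groups apart. Of these 12 genes, the values of Evi5, Tns1, Mmut, Actr2, Erbin, Osbpl1a, Krcc1 and Papss2 are those of dimmer probe sets. In ET3x1 the brightest one rose for Krcc1 (0.38 ± 0.10) and was not called for Papss2 (0.03 ± 0.08), Erbin (0.23 ± 0.12) and Osbpl1a (0.27 ± 0.12). These differences rest on few rats: limma called 0 without high-salt rat 3 or low-salt rat 3 of ET3x1, and 0 without high-salt rat 2 or low-salt rat 2 of ET3x2 (1759 to 2136 had an unadjusted p under 0.05), against 361 without low-salt rat 1 of ET3x1. In addition, each of the 12 lost its call in 5 to 19 of the 26 fits that left out 1 rat. With the Gapdh covariate 0 of 15473 were called by limma (1989 had an unadjusted p under 0.05), with the beta-actin covariate 7 and with the spike-in difference 2. In ET3x2 the Gapdh difference on RAE230A was 0.95 ± 0.07 on low and 0.75 ± 0.11 on high salt (SD, n = 4 each).

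**Figure D5:**
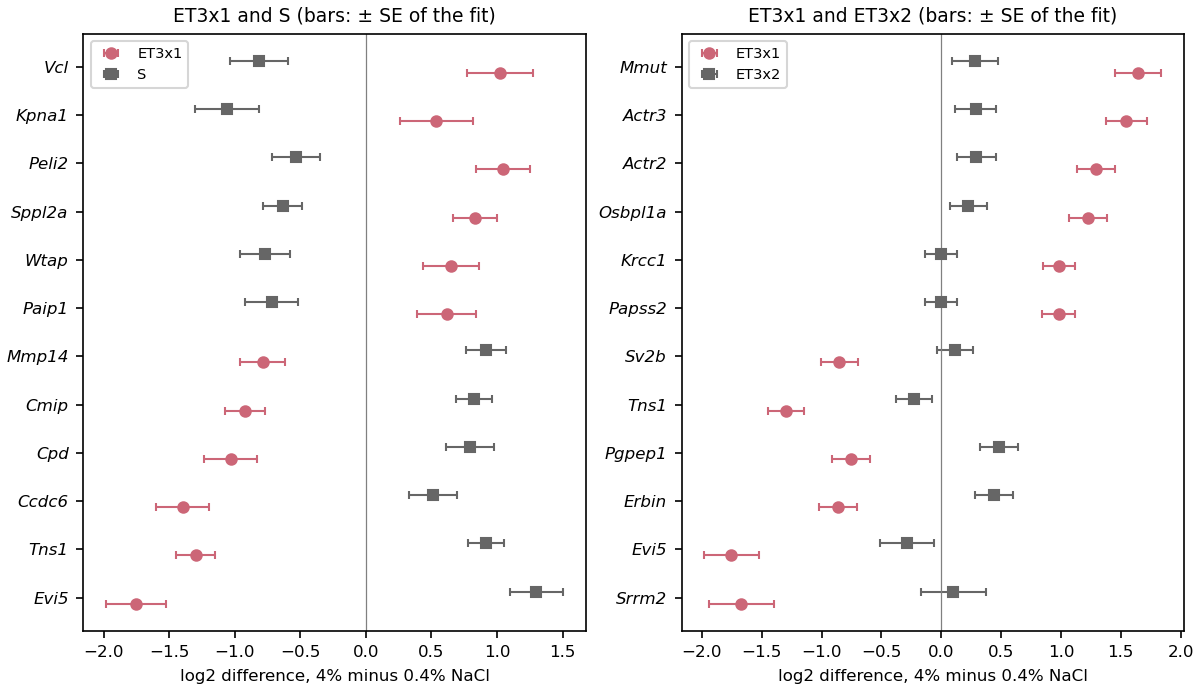
Salt response, as the log2 difference between 4% and 0.4% NaCl ± SE of the fit, of the genes whose response differed most between ET3x1 (circles) and S (left, squares) or ET3x2 (right, squares). Evi5 lies at -1.75 in ET3x1 and at 1.30 in S, and Krcc1 at 0.99 in ET3x1 and at 0.00 in ET3x2.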

How the data were processed

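The authors hybridised kidney RNA of each of 26 rats to RAE230A and RAE230B. The deposited values were taken as log2 signals per probe set from their range (3.40 to 14.7), and as normalized between arrays from their array medians, which lay between 7.47 and 7.52 on RAE230A and between 6.34 and 6.40 on RAE230B. Neither the scale nor the normalization method is stated in the labels or headers. The number of rats limits the precision. The limma p-values set each change against the spread between rats of a group, estimated from all 26 rats. That spread includes variation between arrays.

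Each chip was fitted with limma 3.58.1 in R 4.3.3 on all 26 rats in 6 strain and diet groups (20 residual degrees of freedom, eBayes with intensity trend). Probe sets whose mean reached the median of their chip (7.51 and 6.38) entered, and the 100 probe sets that both chips carry were taken from RAE230A. This left 7933 and 7540 probe sets, of which 11110 had 1 gene symbol, 274 several and 4089 none. Adjusted p-values (Benjamini-Hochberg, over both chips) below 0.05 were called. The difference between strains is the interaction term. The scripts were tested on simulated data.

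Named are the 12 largest rises and falls, from each gene list up to 4 called members by size or, with none called, the 2 of smallest p, Sgk1, Agt, Nr3c2, Rtel1 and Egr1 whatever their value, and the 6 largest differences from each strain in each direction; a few further called list members are named as well. Members and lists were chosen with earlier results of these data known. Alternatives were other normalizations, filters, variance models, adjustments and array weights, control ratios as covariates, the strains compared alone and leaving out each rat; the spike-in covariate was added after seeing the data.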

Additional observations from a re-analysis of the deposited data

Results flagged for a closer look

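In 21 of 270 groups of 4 ET3x1 rats looked at, 1 rat stood apart from the other 3 by more than Dixon's critical value at 95%, a gap that chance gives in about 1 in 20 groups. All values are log2 signals or log2 differences of control probe sets. Ccdc6 was at 9.88 in high-salt rat 4, above the 9.76 to 9.78 of the other 3, and Cmip was at 9.49 in low-salt rat 2, above the 8.82 to 8.91 of the other 3. Per3 was at 7.49 in high-salt rat 3, above the 7.40 to 7.41 of the other 3, and Tef was at 9.40 in low-salt rat 1, below the 9.77 to 9.83 of the other 3. Hspa9 was at 10.45 in low-salt rat 2, below the 10.95 to 11.02 of the other 3, and Slc6a6 was at 8.73 in high-salt rat 4, below the 8.85 to 8.88 of the other 3. Avpr2 was at 8.96 in high-salt rat 1, above the 8.72 to 8.74 of the other 3, and Avpr2 was at 9.08 in low-salt rat 2, above the 9.05 to 9.05 of the other 3. Amn was at 11.24 in low-salt rat 1, below the 11.57 to 11.63 of the other 3, and Gldc was at 9.13 in low-salt rat 3, above the 9.03 to 9.04 of the other 3. Gatm was at 12.55 in high-salt rat 3, above the 12.21 to 12.27 of the other 3, and Tagln was at 9.29 in low-salt rat 4, above the 9.14 to 9.15 of the other 3. Pdgfrb was at 8.18 in high-salt rat 1, below the 8.34 to 8.36 of the other 3, and Lpl was at 7.79 in low-salt rat 2, below the 8.04 to 8.07 of the other 3. Cidec was at 7.96 in low-salt rat 4, below the 8.34 to 8.42 of the other 3, and Ube2c was at 8.42 in low-salt rat 2, above the 8.25 to 8.27 of the other 3. Psmd4 was at 8.56 in low-salt rat 1, below the 8.76 to 8.81 of the other 3, and Hnrnpa2b1 was at 8.97 in low-salt rat 2, below the 9.55 to 9.63 of the other 3. Gapdh 3' minus 5', RAE230B was at 0.55 in high-salt rat 3, above the 0.37 to 0.39 of the other 3, and bioD minus bioC, RAE230B was at 1.98 in low-salt rat 2, below the 2.29 to 2.34 of the other 3. array median, RAE230A was at 7.51 in high-salt rat 2, above the 7.47 to 7.48 of the other 3.

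The salt response differed between strains, by limma's interaction test, for the genes named in the comparisons above. As the log2 response of ET3x1 minus that of S, the 12 values were Evi5 (-3.05), Ccdc6 (-1.91), Tns1 (-2.21), Cpd (-1.82), Cmip (-1.74), Mmp14 (-1.70), Vcl (1.83), Kpna1 (1.596), Peli2 (1.58), Sppl2a (1.47), Wtap (1.42) and Paip1 (1.34). As the response of ET3x1 minus that of ET3x2, the 12 values were Mmut (1.36), Actr3 (1.26), Actr2 (1.00), Evi5 (-1.47), Srrm2 (-1.77), Tns1 (-1.07), Osbpl1a (1.00), Krcc1 (0.99), Papss2 (0.98), Erbin (-1.30), Pgpep1 (-1.24) and Sv2b (-0.97).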

How the results depend on the processing

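With array weights, 4803 probe sets were called for the salt response (1836 higher, 2967 lower), 2388 for the difference from S, 1626 for that from ET3x2 and 203 of 597 list genes, against 2457, 850, 47 and 98. With the Gapdh covariate the counts were 6 (0 higher, 6 lower), 27, 0 (1989 with an unadjusted p under 0.05) and 1 list gene, all by limma. The beta-actin covariate gave 820 (251 higher, 569 lower), 7 for ET3x2 and 33 list genes, and the spike-in covariate, chosen after seeing the data, 958 (563 higher, 395 lower), 58, 2 and 62. A higher brightness floor (8.72 and 7.24), which tests fewer probe sets, gave 1353 (627 higher, 726 lower), 508 and 25; no filter gave 29 for ET3x2, and the 2 strains alone 167. Quantile normalization moved the split for S to 392 higher and 504 lower and for ET3x2 to 42 and 17. Leaving out 1 rat gave 1353 to 3328 calls (682 to 1304 higher, 628 to 2024 lower), 308 to 1547 for S, 0 to 361 for ET3x2 and 51 to 117 list genes. The cause of these shifts was not tested. Averaging a gene's probe sets gave 106 list calls. No paired analysis was possible because the rat numbers follow accession order and pair nothing. Depth is not defined for arrays; probe sets below the floor were left out.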
